A study of Mus musculus with 2 samples.

Results

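The genes described here encode SNAREs, sorting nexins and Vps proteins, the machinery that sorts membrane cargo and fuses vesicles between endosomes, Golgi, lysosomes and the cell surface. They were taken by name: every gene on the arrays whose name in the scanner files is Vamp, Stx, Snx or Vps followed by a digit. The rule found 78 of 27597 named genes, with 160 of 41174 probes. They comprised 6 Vamp genes (vesicle-associated membrane proteins), 16 Stx genes (syntaxins), 25 Snx genes (sorting nexins) and 31 Vps genes (vacuolar protein sorting). The families were selected on earlier results of this same comparison, in particular the ratios of Snx27 and Vamp7 on 1 array, so the ratios below are a description and are not used as support.

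The study compared naive CD8+ T cells, sorted as CD44low CD25low to more than 90% purity per the labels, from Bcl11bF/F/dLck-iCre mice and from wild-type mice, both on the C57BL/6 background. In the former, floxed alleles of Bcl11b, a zinc-finger transcription factor of T cells, are excised by iCre under the distal Lck promoter, which acts late in T cell development and in mature T cells. Age, the number of mice behind each sample and whether wild-type mice carried a Cre are not given in the sources used here. RNA was hybridised on 2 two-colour Agilent arrays, labelled as biological replicates 1 and 2 (n = 2), with the knockout sample in the Cy5 channel and the wild-type sample in the Cy3 channel. The dyes ran the same way on both arrays, so a dye effect and the knockout's effect cannot be told apart.

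A ratio is the log2 of knockout over wild type after background correction and dye normalisation, so 1 is a 2-fold difference, and an error is the SD between the arrays. Cy5 signals were brighter than Cy3 signals, and the normalisation takes that out. A knockout signal above the wild-type signal can therefore give a ratio near 0. The ratio of Bcl11b itself was -1.45 on array 1 and -1.73 on array 2, lower in the knockout on both. Whether its probe lies in the deleted part is not given in the sources used here. All 8 T cell markers, Cd8a and Cd8b1 among them, were well above background in all 4 channels, whereas Il2ra, which encodes CD25, was in none. The Y-linked genes Ddx3y and Eif2s3y were clearly detected in the knockout sample of array 1 and the wild-type sample of array 2 only. Xist was detected in the knockout sample of array 2 only. Detection of the Y-linked genes thus differed between the genotypes on both arrays, in opposite directions, and that of Xist on array 2. Of the myeloid markers 5 of 9 measured passed as higher in the knockout (limma, adjusted p under 0.05). Of the NK cell markers 3 of 5 did, namely Klrb1c, Fcer1g and Tyrobp. Over all genes 1.24% passed as higher. The myeloid marker Lyz2 passed with 4.03 on array 1 and -0.38 on array 2, its wild type not well above background on array 1. Summed myeloid signals were 27411 and 27162 in the knockout against 6838 and 15771 in wild type, and summed NK signals 19368 and 82759 against 5624 and 5216. The macrophage genes Csf1r, Adgre1, C1qa, C1qb and C1qc were above background in both knockout samples and in neither wild-type sample. The other myeloid markers did not share this. Itgam, Cd68, Cybb and Spi1 were above background in no sample, and Lyz2, Mpeg1 and Itgax also in the wild-type sample of array 2. Cd14 had ratios of -0.40 and -0.08. Ncr1, which defines NK cells, was above background in both knockout samples and in the wild-type sample of array 1. Its ratios were -0.20 and 0.86, and those of the NK marker Klra8 were 0.02 and 0.33. On array 2 Fcer1g alone gave 42125 of the knockout's summed NK signal. The part of these markers in the values below was not tested. In RNA of whole sorted samples, fewer cells of a type and less RNA per cell cannot be told apart.

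SNAREs are membrane-anchored proteins that zip together from opposite membranes and so drive fusion. VAMPs are mostly R-SNAREs, carried on the vesicle, and syntaxins are Q-SNAREs, mostly on the target membrane. Sorting nexins bind phosphoinositides on endosomes through a PX domain. With the retromer, built of Vps26, Vps29 and Vps35, they return cargo from endosomes to the Golgi or the cell surface. Other Vps proteins build the HOPS and CORVET tethers of endosomes and lysosomes, the ESCRT complexes that bud vesicles into endosomes, and the GARP tether of the Golgi. In CD8+ T cells this traffic carries the T cell receptor and lytic granules to the immune synapse.

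Of the 78 genes, 52 were measured, meaning that at least 1 probe stood well above background on both arrays in at least 1 channel shared by them: 3 Vamp, 11 Stx, 18 Snx and 20 Vps genes. The other 26 were 3 Vamp, 5 Stx, 7 Snx and 11 Vps genes, of which 10 were well above background in no channel and 10 in the knockout of array 1 only. The 4 samples saw these probes unequally. On array 1, 104 of the 160 probes (65%) were well above background in the knockout and 53 (33.1%) in wild type. On array 2 the counts were 65 (40.6%) in the knockout and 78 (48.8%) in wild type, the opposite order. Over all 41174 probes the shares ran the same way, at 39.6% and 24.6% on array 1 and 24.9% and 30.7% on array 2. The array 1 knockout sample alone accounted for 24 of the probes (15%, against 8.02% of all probes).

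Lysosomal and autophagy genes often carry the E-box CACGTG, the core of the CLEAR element bound by TFEB, before their start, so the promoters of these genes were read for it. RefSeq promoters (GRCm38.p6) were at hand for 57 of the 78 genes, and within the 250 bases before the start 7 of 57 (12.3%) held CACGTG, which reads the same on both strands. The share was 6.86% of 27025 genes and 10.7% of 6742 genes measured on the arrays. The stretches that hold it are shown 5′ to 3′ on the gene's strand, the motif in capitals, for comparing the bases around it.
Snx5 (chr2:144270597-144270642, minus strand): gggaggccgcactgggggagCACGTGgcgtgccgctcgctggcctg
Snx8 (chr5:140389383-140389428, minus strand): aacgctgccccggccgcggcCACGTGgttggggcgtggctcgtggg
Stx6 (chr1:155158598-155158643, plus strand): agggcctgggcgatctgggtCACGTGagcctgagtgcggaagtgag
Vamp4 (chr1:162570332-162570377, plus strand): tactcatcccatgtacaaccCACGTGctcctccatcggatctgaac
Vps16 (chr2:130424282-130424319, plus strand): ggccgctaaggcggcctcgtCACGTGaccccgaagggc
Vps26a (chr10:62486724-62486769, minus strand): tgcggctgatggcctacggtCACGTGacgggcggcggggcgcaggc
Vps33a (chr5:123573016-123573047, minus strand): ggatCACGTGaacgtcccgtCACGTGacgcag
In Stx6, Vps16, Vps26a and at both places in Vps33a the motif stands between T and A, as TCACGTGA. Vps26a and Vps33a hold 2 copies in the window, of which the copy nearer the start is shown for Vps26a. Of the 7 genes 6 were measured, all but Vps26a, with a median mean ratio of 0.13, against 0.23 for 35 measured genes without it. Vamp4 had the highest of the 6, at 1.25, and Snx5 the lowest, at -0.04. A match is a run of letters and not evidence of binding.

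The measured genes spread widely on array 1 and stayed close to 0 on array 2. Their median ratio was 0.37 on array 1 and 0.04 on array 2, against 0.05 and -0.01 over all 9281 measured genes. On array 1, 13 of 52 (25%) lay over 2-fold higher in the knockout, where 21.1% of all genes did, and 3 (5.77%) over 2-fold lower, where 5.89% of all genes did. On array 2 none lay beyond 2-fold in either direction, against 1.96% of all genes higher and 0.873% lower. The shares on array 1 were thus close to those of all genes. The same sign appeared on both arrays above 0 for 20 genes (38.5%, against 30.9% of all genes) and below 0 for 9 (17.3%, against 30.8%), and 23 (44.2%, against 38.2%) had opposite signs. As a description over 52 genes that share the same 2 arrays, the ratios correlated with r = 0.295 and rho = 0.279, against 0.292 and 0.324 over all genes. The ratio was larger in size on array 1 for 43 of the 52 (82.7%, against 82.0% of all genes).

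**Figure D1:**
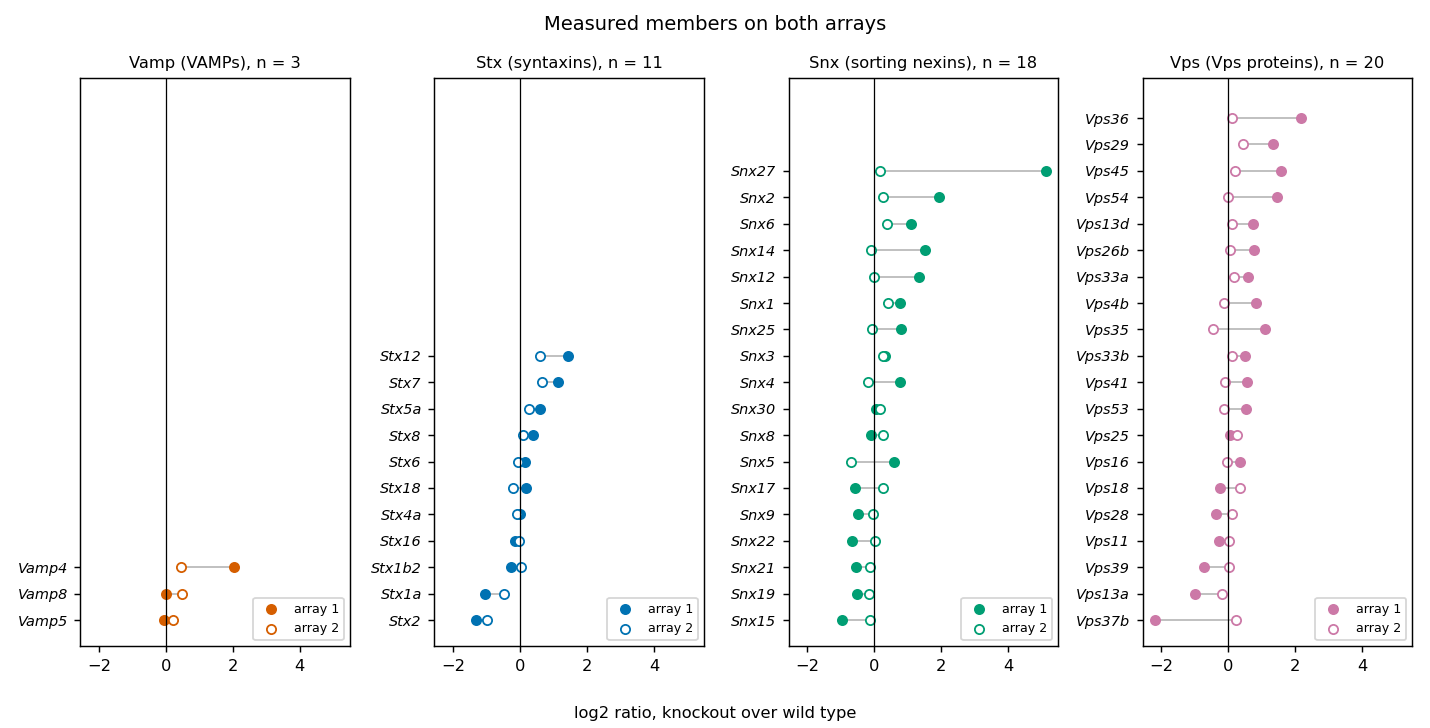
Log2 ratios of the 52 measured genes on array 1 (filled) and array 2 (open), knockout over wild type, 1 row per gene and 1 panel per subfamily, ordered by the mean. Filled points reach from -2.18 (Vps37b) to 5.13 (Snx27), while open points stay within 1 of 0.

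In the fit over all genes 1 of the 52 passed an adjusted p of 0.05 as higher, Snx27, and none as lower (limma with Benjamini-Hochberg adjustment). Over all 9281 genes 1.24% passed as higher and 0.248% as lower. At an unadjusted p under 0.05, 5 were higher (9.62%, against 8.2% of all genes) and 1, Stx2, was lower (1.92%, against 1.56%). From 2 arrays the fit estimated 1 standard error for all genes, 0.50, so a mean ratio passed when its size reached 1.68. It passed even where 1 array held nearly all of the difference. No exact test of 2 arrays can give a p under 0.5.

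The 18 sorting nexins had a median of 0.47 on array 1 and 0.01 on array 2, and the 20 Vps genes 0.54 and 0.07. The 11 syntaxins had 0.14 and -0.04. The 3 VAMPs had -0.01 and 0.46, from Vamp4, Vamp5 and Vamp8 alone. With the filter applied to each array by itself, which takes in more genes, the Vamp median was 0.58 on array 1 and 0.46 on array 2. The genes added on array 1, Vamp1 (0.65) and Vamp2 (0.58), were well above background in the array 1 knockout only. A ratio above 0 is thus built into their entry, and the turned order of the arrays rests on them. Medians of the mean ratio were 0.23 (Vamp), -0.01 (Stx), 0.20 (Snx) and 0.27 (Vps), against 0.04 over all genes.

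Snx27, a sorting nexin with a PDZ domain that recycles endosomal cargo to the cell surface with the retromer and is found at the T cell synapse, had 5 probes. All lie on the minus strand of chromosome 3 in mm8, the build of the array design. The probe that stands for the gene (A_52_P240152, chr3:94586120-94586179, annotated to transcript variant 1) had a ratio of 5.13 on array 1 and 0.18 on array 2, a mean of 2.66 ± 3.50 (SD, n = 2). Its signal on array 1 was 7878 in the knockout and 696 in wild type. On array 2 the signals were 5434 and 2495. The knockout sample was bright on both arrays and the wild-type sample on array 2 only. That wild-type signal on array 1 was 64.0% of the median of the negative control spots in Cy3 (1087), so it lay under the unspecific signal of an empty probe. On the normalised log2 channel scale, array 1 minus array 2 was -3.53 for the wild-type level and 1.42 for the knockout level.

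The other Snx27 probes gave no such ratio. A_52_P117566, which also passed the background filter, had 0.68 and 0.29 on the 2 arrays. The 3 that did not pass had 0.74 and 0.23 (A_52_P672296), 0.41 and 0.31 (A_52_P117569), and 0.08 and -0.06 (A_52_P19329). Their signals were at most 1177 in the knockout on array 1, against 7878 for the first probe. The 12 spots next to that probe had a median ratio of 0.33 on array 1. Averaged over the 2 probes that passed, Snx27 had a mean ratio of 1.57 and an adjusted p of 0.0516 (limma), just over the threshold. The call was also lost with the scanner software's ratios, with no background correction, with no filter, and with the arrays scaled to the same spread, and Snx27 was not measured when both channels had to be well above background. Without array 1 the ratio was 0.18, and without array 2 it was 5.13.

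Vamp7, an R-SNARE of late endosomes, lysosomes and secretory granules, shows the same form but falls outside the name rule, since the files list it under its older name Sybl1. Its 1 probe (A_51_P364421) had a ratio of 4.60 on array 1 and 0.37 on array 2, a mean of 2.48 ± 2.99 (SD, n = 2), which passed the fit over all genes. Its call was lost with the scanner software's ratios, with no background correction, with median centring, with no filter and with the arrays scaled to the same spread (limma, adjusted p from 0.0704 to 0.635). It was not measured when both channels had to be well above background. On array 1 its signal was 4290 in the knockout and 703 in wild type, and on array 2 it was 5282 and 2224. Here too the array 1 wild-type sample alone was dim, at 64.7% of the negative control median. The 14 neighbouring spots had a median ratio of 0.07. In all, 12 genes of these families stand in the files under other names, and 8 of them were measured. Among those, Snx18, listed as Snag1, had ratios of 1.64 and 0.53 with one probe and 0.70 and 0.70 with the other.

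**Figure D2:**
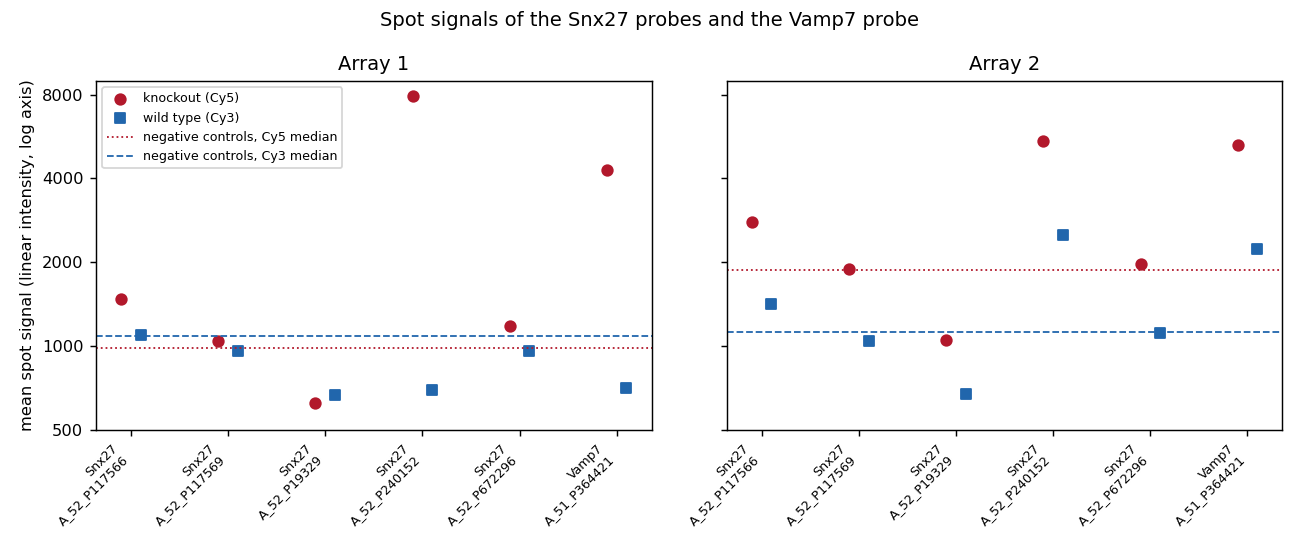
Mean spot signal on a log axis for the 5 Snx27 probes and the Vamp7 probe, knockout in Cy5 (circles) and wild type in Cy3 (squares), 1 panel per array, with the negative control medians as lines. On array 1 the wild-type signals of A_52_P240152 (696) and of Vamp7 (703) lie under the Cy3 line while the knockout signals are 7878 and 4290.

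Whether the wild-type sample of array 1 was above background went along with the ratio throughout. For 14 of the 52 genes it was not, and these had a median array 1 ratio of 0.93, with 7 over 2-fold higher. They had passed the filter through the knockout channel alone, so a ratio above 0 is built into their selection. The other 38 had a median of -0.01 on array 1, with 6 over 2-fold higher and 3 over 2-fold lower. Of these 38, 5 had passed the filter through the wild-type channel alone, which favours a ratio below 0. Over all genes the medians were 1.21 and -0.19, and 62.4% and 11.3% lay over 2-fold higher. Between the arrays the wild-type level moved more than the knockout level for 35 of 52 genes (67.3%, against 65.4% of all genes), with an SD of the steps of 0.86 in wild type and 0.46 in the knockout. A difference in amount between the RNA samples or their labelling was not tested.

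**Figure D3:**
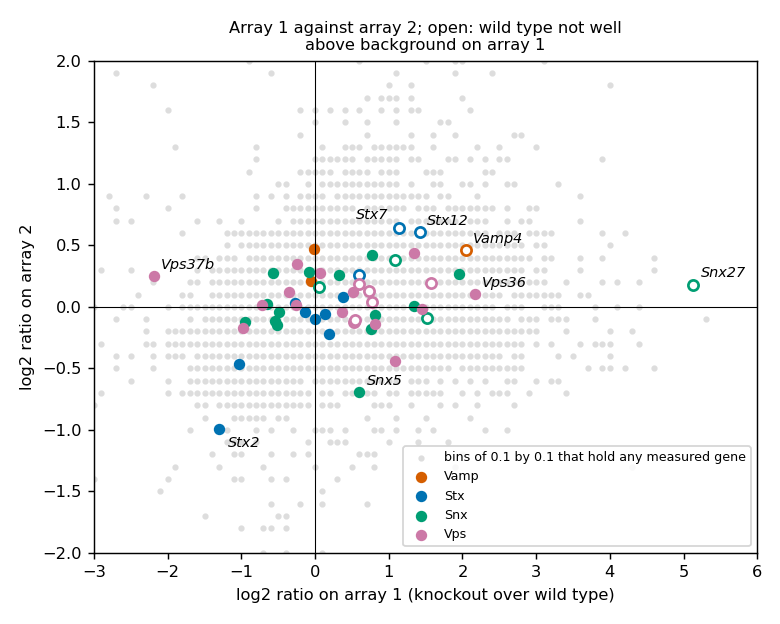
Log2 ratio on array 1 against array 2 for the 52 measured genes, coloured by subfamily, open where wild type was not well above background on array 1; grey points mark bins that hold any measured gene within the plotted range. Open points all lie to the right of 0 on array 1, and Stx2 is the one labelled gene far below 0 on both arrays.

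Among the sorting nexins, those of the retromer had ratios above 0 on array 1. Retromer returns cargo receptors from the endosome, Vps26, Vps29 and Vps35 forming its core and Snx1, Snx2, Snx5 and Snx6 bending the membrane into tubules. Of 10 genes listed for it 9 were measured, with a median of 1.09 on array 1 and 0.26 on array 2. On array 1 all 9 lay above 0, but 3 of them (Snx27, Snx6 and Vps26b) had passed the filter through the knockout channel alone, which builds a ratio above 0 into their selection. The other 6, with wild type above background on both arrays, also lay above 0 on array 1, where 40.7% of all genes with wild type above background there did. On array 2, 4 of these 6 did, where 48.2% of all measured genes did, whatever their wild-type signal. Without Snx27 the medians of the remaining 8 were 0.93 and 0.26. None but Snx27 passed the fit.

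Snx2 had the largest mean among these 8, with 1.95 on array 1 and 0.27 on array 2 (1.11 ± 1.19, SD, n = 2). Its signal was 13227 in the knockout against 1521 in wild type on array 1, and 8445 against 3455 on array 2. The difference was wide on array 1 and slight on array 2. Its partner Snx6 had 1.09 and 0.38, and Snx1 0.78 and 0.42. Snx5, which pairs with the same nexins, ran 0.60 on array 1 and -0.69 on array 2, and both of its kept probes did so. In the core, Vps29 had 1.34 and 0.44 (0.89 ± 0.64, SD, n = 2), Vps26b 0.77 and 0.04, and Vps35 1.09 and -0.44. Vps26a was well above background in the array 1 knockout only, with 1.60 and 0.49. Snx3, which works with retromer without a membrane-bending domain, had 0.33 and 0.26, the closest pair of the complex. Thus the core subunits shared a ratio above 0 on array 1 but not on array 2.

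Further sorting nexins lay below 0 on both arrays. Snx15 had -0.95 and -0.12 (-0.54 ± 0.59, SD, n = 2), Snx19 -0.52 and -0.15, and Snx21 -0.54 and -0.11. For Snx15 and Snx19 the mean ratio turned above 0 when the arrays were centred on their medians in place of loess, to 0.14 and 0.23. That setting moved the median of all genes from 0.04 to 0.68, so relative to all genes both stayed lower. Snx17, which recycles integrins and which T cells use to recycle their receptor, had -0.57 and 0.28, opposite signs. Snx9, a partner of dynamin in endocytosis, had -0.49 and -0.05. Snx21 and Snx9 were not well above background in the array 2 knockout. Both had passed the filter through the wild-type channel alone, which favours a ratio below 0.

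Stx2, a plasma membrane syntaxin, had the lowest mean of all 52 genes and differed little between the arrays. Its ratio was -1.30 on array 1 and -0.99 on array 2 (-1.15 ± 0.22, SD, n = 2), a mean 2.22-fold lower in the knockout. The signals were 5566 in the knockout and 3945 in wild type on array 1, and 4446 and 3881 on array 2, well above background in all 4. Its adjusted p was 0.356 (limma), which did not pass the threshold. The other Stx2 probe, above background in no channel, had -0.31 and -0.27. Median centring moved the mean to -0.34, against a median of 0.68 over all genes. Stx1a, known from neuronal exocytosis, also lay below 0, at -1.04 and -0.47, but was not well above background in the array 2 knockout. It had passed the filter through the wild-type channel alone, which favours a ratio below 0.

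Stx7 and Stx12, both Qa syntaxins of endosomes, lay above 0 on both arrays. Stx12, also known as syntaxin 13, had 1.42 and 0.61 (1.01 ± 0.58, SD, n = 2), from signals of 2395 against 1048 on array 1 and 3193 against 1390 on array 2. Stx7, of late endosome fusion, had 1.14 and 0.64 (0.89 ± 0.35, SD, n = 2), from 3332 against 1162 and 5149 against 1912. In both genes wild type was not well above background on array 1, so both entered through the knockout channel, and neither passed the fit. They were the 2 highest of the 52 genes on array 2. Stx5a, of transport between endoplasmic reticulum and Golgi, had 0.60 and 0.26, and Stx16, of the trans-Golgi, -0.14 and -0.04. Stx5a too had entered through the knockout channel alone, which builds in a ratio above 0. Over the 9 measured Qa syntaxins of 13 listed the medians were -0.01 and -0.04, since Stx7 and Stx12 stood opposite Stx1a and Stx2. The Qc syntaxins Stx6 and Stx8, which pair with Qa syntaxins in endosomal bundles, had 0.14 and -0.06, and 0.38 and 0.08.

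Vamp4, an R-SNARE of the trans-Golgi and endosomes, had the highest mean among the 3 VAMPs measured under that name, below Vamp7, with 2.04 and 0.46 (1.25 ± 1.12, SD, n = 2). Its signal was 3036 in the knockout against 974 in wild type on array 1, and 3694 against 1628 on array 2. The array 1 wild-type signal was again not above background. The other 2 Vamp4 probes, above background in the array 1 knockout only, had 1.38 and 0.30, and 0.55 and 0.36. All 3 probes thus lay above 0 on both arrays. On array 1 each was above background in the knockout alone, which builds in a ratio above 0. On array 2 those other 2 probes were above background in neither channel. Vamp8, which acts in secretory granule and late endosome fusion and in cytotoxic T cell granule release, had -0.01 and 0.47, a difference seen on array 2 only. Vamp5 had -0.06 and 0.21. Vamp1, Vamp2 and Vamp3 were not measured. Vamp2, an R-SNARE of lytic granules, was above background with 1 of its 3 probes and in the array 1 knockout only, at 0.58 and 0.16.

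Stx11, Stx4a and Vps33b are also known from lymphocyte granule and synapse traffic. Stx11, whose human counterpart is mutated in a familial hemophagocytic lymphohistiocytosis, was above background in the array 1 knockout only, with signals of 1266 there against 963, and 1961 against 1087 on array 2 (ratios 0.91 and 0.27). Stx4a, a plasma membrane syntaxin, had -0.01 and -0.10, and its 2 kept probes gave nearly the same values. Vps33b, a Sec1/Munc18 protein of lysosome-related organelles, had 0.52 and 0.12. Of the genes described for their part in this traffic, Snx27 and Vamp7 passed the fit, each with the losses given above.

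**Figure D4:**
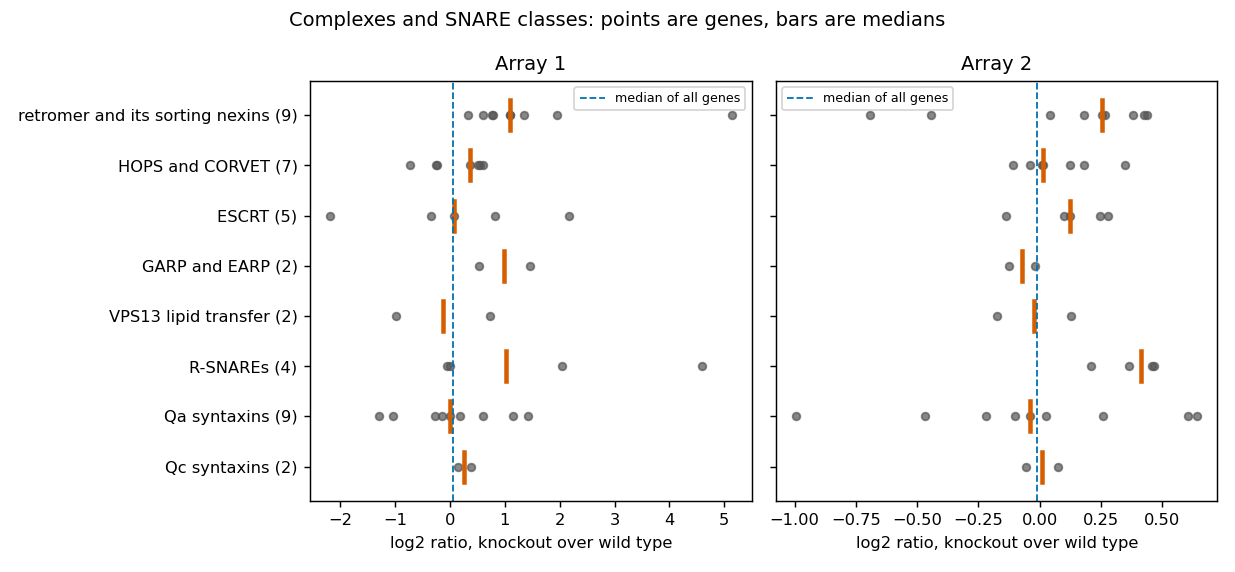
Log2 ratios of measured genes by complex or SNARE class (number of genes in brackets) on each array, with the class median as a bar and the median of all genes as a dashed line; the scale of array 2 is narrower, and Vamp7 is counted with the R-SNAREs. The retromer median is 1.09 on array 1 and 0.26 on array 2.

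HOPS and CORVET, the tethers that join late and early endosomes before SNAREs fuse them, had 7 of 8 genes measured, with medians of 0.36 and 0.01. Their range on array 1 ran from -0.73 (Vps39) to 0.59 (Vps33a). Vps33a and Vps33b were the only ones above 0 on both arrays. Of ESCRT 5 of 10 genes were measured, with medians of 0.07 and 0.12 and a range on array 1 from -2.18 to 2.17. The GARP genes Vps53 and Vps54 had 0.52 and 1.45 on array 1 and -0.12 and -0.02 on array 2. Vps45, a Sec1/Munc18 partner of Stx16, had 1.57 and 0.19. In Vps33a, Vps53 and Vps45 wild type was not well above background on array 1. Their probes had entered through the knockout channel alone, which builds in a ratio above 0 there. The other kept Vps33a probe, above background in every channel, had 0.33 and 0.35.

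Both ends of the ESCRT range rested on array 1. Vps36, the ubiquitin-binding subunit of ESCRT-II, had 2.17 and 0.10 with its representative probe, from signals of 31099 against 2367 and 26473 against 10307. Its other kept probe gave -0.21 and -0.34. Vps37b, a subunit of ESCRT-I, had -2.18 on array 1 and 0.25 on array 2, from signals of 14296 against 16397 and 22696 against 8233. Its wild-type sample was the brighter of the wild-type pair on array 1, the reverse of Vps36. The ESCRT-II subunit Vps25 had 0.07 and 0.28, and Vps4b, an ATPase that takes ESCRT-III apart, 0.82 and -0.14.

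Where a gene had several kept probes they agreed closely on array 2. This held for 16 of the measured genes, whose probes lay a median of 0.10 apart on array 2, against 0.19 over all genes, and 0.53 apart on array 1, against 0.62. On array 1, 4 of the 16 had probes over 2-fold apart (25%, where 32.3% of all genes did), and on array 2 none did, against 1.94% of all genes. The gaps on array 1 were 4.46 for Snx27, 2.37 for Vps36, 2.15 for Vps13a and 1.40 for Snx12, a gene of the X chromosome. Snx12 gave 1.34 with one probe and -0.07 with the other on array 1, and 0.00 and -0.05 on array 2.

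The choice of probe set the sign of the mean ratio in 5 of the 16: Vps13a, Vps36, Snx12, Snx5 and Vamp8. For Vps13a, a lipid transfer protein of membrane contact sites, the strand differed as well. Its brightest probe (A_52_P493502, chr19:16847914-16847970 in mm8) had -0.98 and -0.18, but it is annotated on the plus strand, while the gene lies on the minus strand in RefSeq (GRCm38.p6). The kept probes on the gene's own strand had 1.16 and 0.21 (A_51_P130874) and 0.64 and 0.04 (A_52_P589780). Both had passed the filter through the knockout channel alone, which builds in a ratio above 0. The brightest probe had passed through the wild-type channel alone, which favours a ratio below 0. How far the filter set these signs was not tested. Over all 3 the mean ratio was 0.15, in place of -0.58. Of 113 probes with a strand on both sides 4 were opposite to their gene, in Snx4, Stx3 and Vps13a, and of these the one Vps13a probe alone passed the filter.

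**Figure D5:**
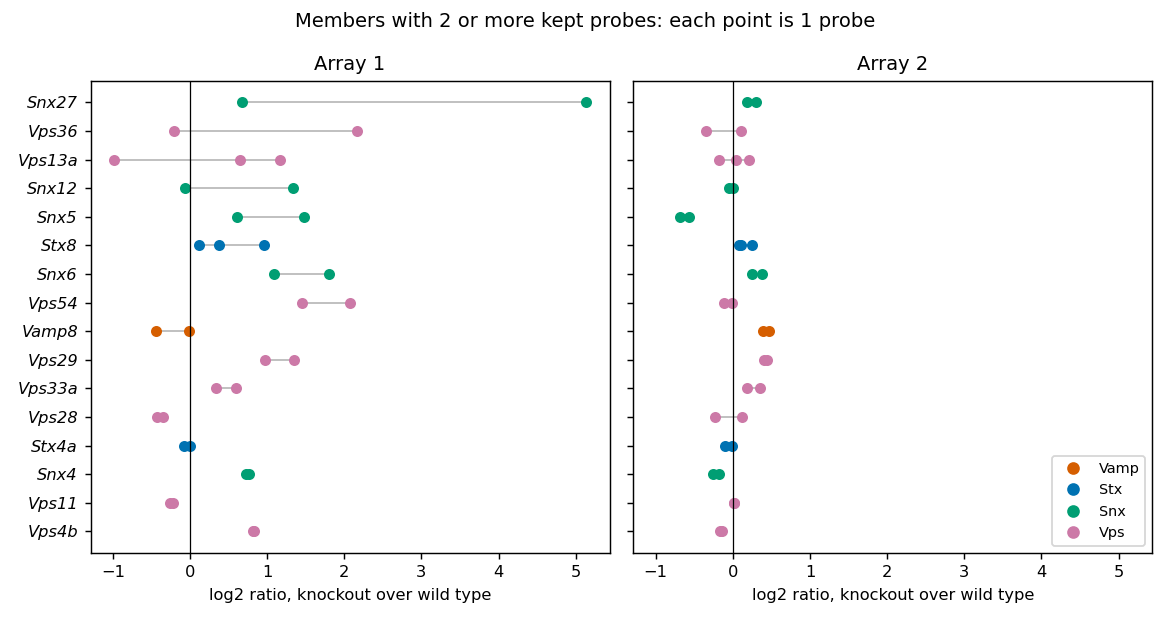
Log2 ratios of every kept probe of the 16 genes with at least 2 of them, 1 point per probe and 1 panel per array, ordered by the gap on array 1. The Snx27 probes lie at 5.13 and 0.68 on array 1 and at 0.18 and 0.29 on array 2.

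None of the remaining genes listed for the pathway passed the fit. Of 27 other SNAREs and their machinery 23 were measured, with a median mean ratio of 0.22, and 1 was higher at an unadjusted p under 0.05 (limma), where 8.2% of all genes were. Among them Snap23, the Qbc-SNARE of the plasma membrane outside neurons, had 1.42 and 0.56, and Use1, of retrograde Golgi transport, -1.37 and -0.47. Of 27 endosome and ESCRT partners 21 were measured, with a median of 0.34, and 4 were higher at that level. Stam, an ESCRT-0 subunit, had 2.52 and 0.24, and the ESCRT-III subunits Chmp2b and Chmp5 had 2.57 and 0.01, and 2.12 and 0.28. In these, as in Vps36, array 1 held nearly all of the difference. For Snap23, Stam and Chmp2b wild type was not well above background on array 1. They had passed the filter through the knockout channel alone, so a ratio above 0 is built into their selection.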

How the data were processed

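Per the labels' protocols, RNA came from a Trizol and column extraction, was amplified with an Agilent linear kit and received its dyes through Kreatech ULS labelling. Per the submitters' processing notes, images were read with Agilent Feature Extraction (version 9.5.3.1). The deposited scanner files hold each spot's mean signal and local background as linear intensity, not normalised, and a log10 ratio of red over green, background-subtracted and dye-normalised by that software, per the file headers. The deposited value table holds the same log10 ratio, equal within 0.005 at all 45018 spots, with column medians of 0.

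Here intensities were background-corrected in limma 3.58.1 (R 4.3.3) with normexp (offset 50) and normalised by loess within arrays, control and flagged spots at weight 0 and then left out. A probe was kept where 1 channel was well above background on both arrays, and a gene's brightest kept probe represented it. Two-sided tests of the mean ratio used limma's lmFit and eBayes, adjusted by Benjamini-Hochberg over 9281 genes. Channel levels also had Aquantile normalisation. The procedure was run on simulated data in which both arrays had the same spread. In the real data the median size of a ratio was 0.61 on array 1 and 0.19 on array 2. That run therefore cannot speak to calls that rest on 1 array. Both arrays lay on the same slide, so no batch could be tested, and the number of arrays limits the precision.

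The members, the gene lists and the rule for named genes were chosen with earlier results of these data known. Named were Snx27 and Vamp7; in each subfamily called members, the 3 highest and 3 lowest mean ratios among those with 1 sign on both arrays, and members with kept probes over 2 (log2) apart on an array or over 1 on both; and genes of lymphocyte granule and synapse traffic. Other members were named as subunits of a listed complex or to show a pattern, after their values were seen. The files name probes but hold no probe sequences used here.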

Additional observations from a re-analysis of the deposited data

How the results depend on the processing

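No paired analysis was possible because the arrays form 1 group of ratios, each already a knockout and wild-type pair. Without an array a ratio has a value and no test. The 1 gene passing as higher became 0 under the scanner software's ratios, without background correction, with both channels required above background, with no filter, with arrays scaled to the same spread, and with kept probes averaged (limma); it remained 1 under median centring. Over all genes the calls, 138, became 0 (566 at an unadjusted p under 0.05), 32, 40, 0 (2478), 0 (1051) and 147 in that order, and 63 under median centring, 62 of them higher against 115 of 138. The adjusted p of Snx27 was 5.21e-05, and 0.635, 0.225, 0.465, 0.436 and 0.0516 where it was lost. Its ratio there was 2.93, 1.25, 2.66, 1.59 and 1.57. Median centring moved the subfamily medians to 1.03 (Vamp), 0.82 (Stx), 0.84 (Snx) and 0.73 (Vps), with the median of all genes at 0.68. Leaving out each array, with the filter reapplied, gave ranges of 0.46 (array 2) to 0.58 (array 1) for Vamp, -0.048 to 0.17, 0.0046 to 0.43 and 0.03 to 0.52 for the others in that order. Genes with probes over 2-fold apart numbered 8 on array 1 with the scanner software's ratios, 2 with both channels required and 17 with no filter, against 4; without array 2 there were 12. On array 2 there was 1 with the scanner software's ratios and 1 with no filter, against 0. Of 19 genes named by rule, 3 changed sign under median centring (Snx15, Snx19, Stx16) and 1, Vps13a, with kept probes averaged. The cause of these shifts was not tested. Dim signals limit the ratios: negative controls had medians of 985 and 1087 on array 1 against local backgrounds of 45 and 35. How far this shifts the ratios of dim probes was not tested. Without background correction the mean ratio of Snx27 was 1.25 in place of 2.66, and that of Vamp7 1.10 in place of 2.48.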
